A study of Mus musculus with 4 samples.

Results

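The 8 genes described here mark the neurons and glia of the enteric nervous system: Ret, Elavl4, Uchl1, Chat, Nos1, Vip, S100b and Sox10. They were taken by symbol, and all 8 were found among the 20749 genes whose RefSeq exon blocks (merged exons of mm9) served as the matching reference. RNA-Seq reads of the SOLiD platform had been generated from total tissue of the small intestine and of the colon of untreated C57BL/6 mice aged 9 to 10 weeks. By the methods of the study these tissues were jejunum and distal colon. Each tissue was sequenced by a cDNA fragmented protocol, in which polyadenylated RNA was copied into cDNA and amplified before shearing, and by an RNA fragmented protocol, in which RNA was fragmented directly and adaptors were ligated with their strand kept. The labels give RNA depleted of ribosomal RNA for the RNA fragmented libraries. The paper instead describes enrichment for polyadenylated RNA in this protocol. It also lists far more reads for it than the 36419942 and 37466674 of the small intestine and colon libraries used here. How these libraries relate to those of the paper was not settled. There was 1 library per tissue and protocol, so no spread between replicates could be calculated within a protocol, and the number of mice behind each library was not given in the sources used here.

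The enteric nervous system lies in the gut wall as a plexus between the muscle layers and another in the submucosa, and its neurons and glia arise from neural crest cells that migrate into the gut. Neurons that release acetylcholine excite the muscle, whereas many neurons that relax it make nitric oxide together with vasoactive intestinal peptide. Ret is the receptor of the glial cell line-derived neurotrophic factor family that these precursors need, Elavl4 and Uchl1 encode an RNA-binding protein and a ubiquitin hydrolase of neurons, Chat and Nos1 encode the enzymes that make acetylcholine and nitric oxide, Vip encodes the peptide precursor, and S100b and Sox10 are a calcium-binding protein and a transcription factor of glia. Several of them are not limited to these cells. Chat is also found in tuft cells, and S100b also in adipocytes.

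Small intestine gave 22484041 and colon 24798934 uniquely placed reads with the cDNA fragmented protocol, against 2035386 and 3478387 with the RNA fragmented protocol, so the latter values are less precise. Uniquely placed reads made up 29.01% and 29.77% of all reads in the cDNA fragmented libraries of small intestine and colon. In the RNA fragmented libraries they made up only 5.59% and 9.28%, so this share also differed between the tissues of that pair. The part of this share in the ratios was not tested. Of the reads on genes, 48.3% lay on the strand of the gene in both cDNA fragmented libraries, and 99.3% and 99.6% in the RNA fragmented libraries of small intestine and colon. Reads of sex-linked genes differed between the libraries of the cDNA fragmented pair, although the study describes its tissues as coming from the same individuals. Xist, which is transcribed in females, had 1751 reads in small intestine and 31 in colon, whereas 4 genes of the Y chromosome together had 19 and 3433 reads. In that pair sex and tissue cannot be told apart. Both RNA fragmented libraries had few Xist reads (9 and 5) and 360 and 785 reads of the Y-linked genes. A single gene, Lars2, took 13.7% and 5.35% of the uniquely placed reads in the RNA fragmented pair, against 0.0214% and 0.0397% in the cDNA fragmented libraries.

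Short coding stretches show which bases of these genes the reads reached. For Vip, Uchl1 and Nos1 the coding position at which most sense reads began is given with the following bases, since the comparisons turn on these genes. For Nos1 the end of the deposited gene model is given as well, because it decides which reads could be placed. All are written 5′ to 3′ on the strand of the gene in mm9. In the first 3 the capital marks the base at which the reads began, and in the fourth the capitals mark the last exon block, joined to the 16 coding bases before it.
Vip: Aaatgccaggcatgctgatggagttttcac
Uchl1: Gtgaaccatggcgccagctcagaggactct
Nos1: Gtgtcatcagtaattggaaggatgaatctc
Nos1 end: aaaaagacacagatgaGGTTTTCAGCTCCT
The Vip stretch lies at chr10:4702989-4703018 on the minus strand, and 16 reads of the RNA fragmented colon library and 1 of the cDNA fragmented colon library began at its first base. The Uchl1 stretch lies at chr5:67076032-67076061 on the plus strand and was the start of 3 small intestine and 7 colon reads of the RNA fragmented libraries. The Nos1 stretch lies at chr5:118388146-118388175 on the plus strand and was the start of 2 and 3 RNA fragmented reads. The Vip and Nos1 stretches begin at the edge of an exon block. Reads starting up to 3 bases beyond a block were counted with it, so some may have begun just before these stretches. The last Nos1 block spans chr5:118403807-118403820, of which 13 bases are coding, and no read was placed there.

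Vip had the highest level of the 8 genes in all 4 libraries, and the others lay between 0 and 13.0 RPKM, the reads per kilobase of exon length for each 1000000 reads with a unique placement. In the cDNA fragmented colon library Vip was followed by Uchl1 at 6.68, S100b at 3.86, Elavl4 at 1.21, Ret at 0.824, Chat at 0.316, Sox10 at 0.164 and Nos1 at 0.0276 RPKM. The exact Poisson 95% intervals of Chat (0.198 to 0.478) and Sox10 (0.0816 to 0.293) overlapped, and those of all other neighbours in this order did not. In the RNA fragmented colon library the order was Vip, Uchl1, Elavl4, Nos1, Ret, Chat, S100b and Sox10. There the intervals of Elavl4 (2.71 to 4.66), Nos1 (2.15 to 3.95) and Ret (2.24 to 3.59) overlapped, as did those of Chat, S100b and Sox10. Vip ranked 877 of 15614 genes with reads in that library. These intervals cover counting error only, and amplified reads are not independent molecules.

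**Figure D1:**
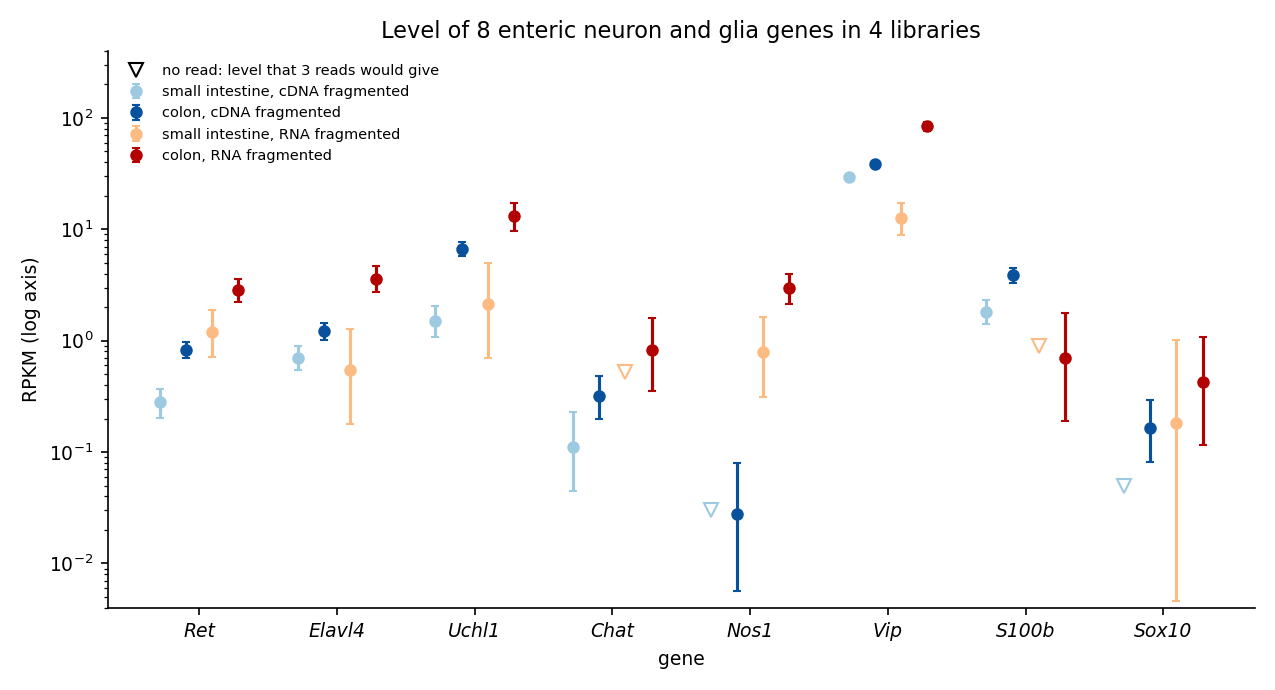
Level of each gene in RPKM on a log axis in the 4 libraries, with points for 1 library each and bars for the exact Poisson 95% interval; open triangles stand where a library had no read and mark the level that 3 reads would give. The colon point lies above the small intestine point of the same protocol for every gene with reads in both, from Vip at 84.3 RPKM down to Sox10 at 0.424 RPKM in the RNA fragmented colon library. Of all genes, 66.3% were higher in colon in the cDNA fragmented pair and 64.8% in the RNA fragmented pair.

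Ret (chr6:118101766-118147762, minus strand, 19 exon blocks) had 46 reads in the small intestine library and 150 in that of colon with the cDNA fragmented protocol, and 18 and 73 by the RNA fragmented protocol. Its levels were 0.279 and 0.824 RPKM in the former pair and 1.20 and 2.86 RPKM in the latter. The ratio of colon to small intestine per uniquely placed read was 2.96 (exact conditional 95% interval 2.11 to 4.21) and 2.37 (1.40 to 4.22). Both protocols thus gave a higher level in colon by a similar factor, and the ratio of these ratios, RNA over cDNA fragmented, was 0.803 (0.435 to 1.48, counting error only).

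Elavl4 (chr4:109876342-110024516, minus strand, 9 blocks) had 71 and 135 reads in the cDNA fragmented libraries of small intestine and colon, and 5 and 56 in the RNA fragmented libraries. This was 0.704 and 1.21 RPKM, and 0.547 and 3.59 RPKM. The ratio of colon to small intestine was 1.72 (1.28 to 2.33) in the cDNA fragmented pair and 6.55 (2.65 to 21) in the RNA fragmented pair, which rests on 5 reads in small intestine. The RNA fragmented ratio was 3.80 times the other (1.46 to 9.92).

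Uchl1 (chr5:67067360-67078473, plus strand, 9 blocks) had 39 and 190 reads by the cDNA fragmented protocol and 5 and 52 by the RNA fragmented protocol. Its levels were 1.51 RPKM in small intestine and 6.68 RPKM in colon, and 2.14 and 13.0 RPKM. The ratios were 4.42 (3.12 to 6.41) and 6.09 (2.45 to 19.5), and they differed by a factor of 1.38 (0.517 to 3.67). Among the 8 genes Uchl1 had the highest ratio in the cDNA fragmented pair for which reads in both tissues were found. Its first 2 blocks overlap Gm16832, a long noncoding RNA of the opposite strand. In the blocks that no other gene touches, 39 and 188 reads remained in the former pair and 4 and 46 in the latter, and every Uchl1 read of the RNA fragmented libraries lay on the strand of Uchl1.

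Chat (chr14:33221389-33279095, minus strand, 16 blocks), the enzyme of acetylcholine synthesis, had 7 small intestine reads and 22 colon reads in the cDNA fragmented pair, and 0 and 8 in the RNA fragmented pair. The former were 0.111 and 0.316 RPKM with a ratio of 2.85 (1.18 to 7.90). In the RNA fragmented pair colon reached 0.818 RPKM. With the 0 reads in small intestine set to 3 reads (0.525 RPKM) colon was 1.56-fold higher, while the lower limit of the exact interval was 0.999.

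Nos1 (chr5:118317128-118403820, plus strand, 28 blocks), the neuronal nitric oxide synthase, was nearly unseen by the cDNA fragmented protocol, with 0 small intestine and 3 colon reads, and no ratio is given. The RNA fragmented libraries, which are shallower, held 7 and 45 reads, or 0.784 and 2.95 RPKM. The ratio of colon to small intestine there was 3.76 (1.68 to 9.89).

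Vip (chr10:4698927-4707323, minus strand, 7 blocks) had 1019 and 1469 reads in the cDNA fragmented libraries, or 29.7 and 38.8 RPKM, and 39 and 448 reads in the RNA fragmented libraries, or 12.5 and 84.3 RPKM. Its ratio of colon to small intestine was 1.31 (1.21 to 1.42) in the cDNA fragmented pair and 6.72 (4.84 to 9.58) in the RNA fragmented pair. The protocols therefore gave tissue ratios that differed by a factor of 5.14 (3.67 to 7.20), the largest such factor among the 4 genes with at least 5 reads in every library (Ret, Elavl4, Uchl1 and Vip). In the RNA fragmented colon library the 448 reads began at 164 start points and 29 of them at a single one. Counted by start points, the ratio was 4.36 in that pair.

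S100b (chr10:75716581-75724064, plus strand, 3 blocks) showed the opposite of Nos1 between the protocols. It had 68 and 159 reads in the cDNA fragmented libraries, or 1.82 RPKM in small intestine and 3.86 RPKM in colon, with a ratio of 2.12 (1.59 to 2.86). The RNA fragmented libraries held 0 and 4 reads, and of these 4 only 1 lay on the strand of S100b. Since 3 reads in small intestine would give 0.887 RPKM, above the 0.692 RPKM of colon, a difference between the tissues was not detectable at this depth. Sox10 (chr15:78985344-78994920, minus strand, 4 blocks) had 0 and 11 reads in the cDNA fragmented pair and 1 and 4 in the RNA fragmented pair. With 3 reads as the floor in small intestine, colon was 3.32-fold higher in the former, at 0.164 RPKM, while the lower limit of the exact interval was 2.28. The ratio in the latter was 2.34 with an interval of 0.232 to 115.

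**Figure D2:**
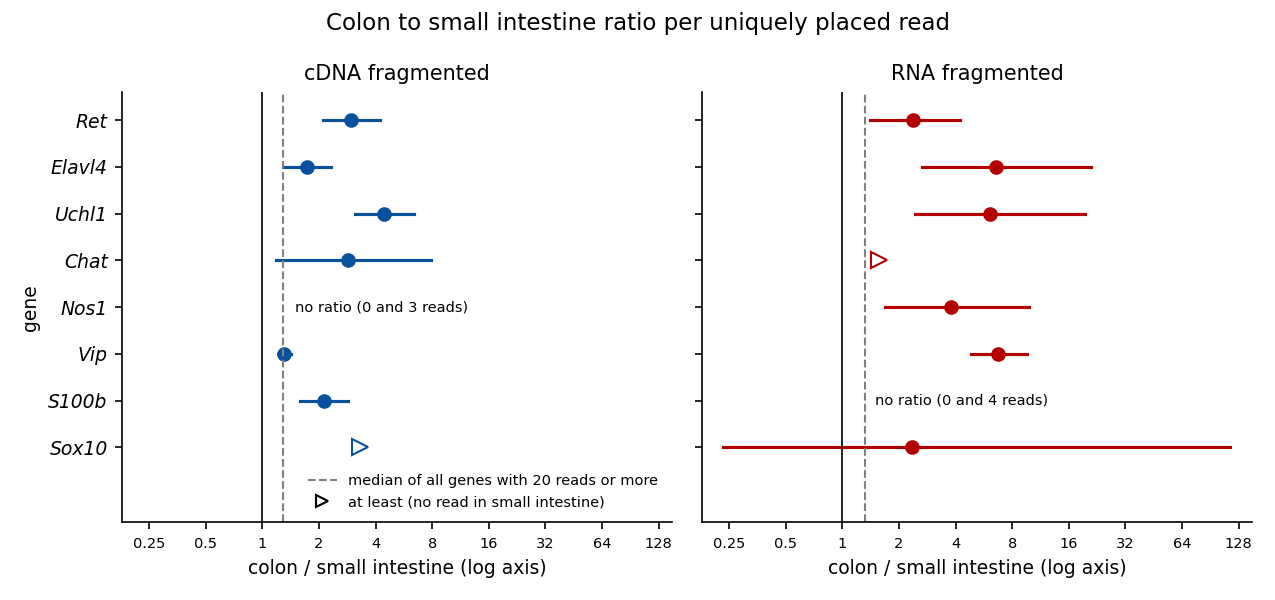
Ratio of colon to small intestine per uniquely placed read for each gene and protocol on a log axis, with bars for the exact conditional 95% interval; the dashed line is the median of all genes with at least 20 reads in the pair. Vip lies at 1.31, on the dashed line, in the cDNA fragmented pair and at 6.72 in the RNA fragmented pair, whereas Ret (2.96 and 2.37) and Uchl1 (4.42 and 6.09) lie to the right of it in both.

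The comparison of the tissues was then set against all genes. On the log2 scale the median ratio between colon and small intestine, with 0.1 RPKM added to each level, was 0.37 over 14163 genes with at least 20 reads in the cDNA fragmented pair and 0.40 over 11920 such genes in the RNA fragmented pair. Over the 8 genes it was 1.01 and 2.53, or 1.30 and 1.58 when levels below 3 reads were set to 3 reads and nothing was added. Of the 6 genes with at least 20 reads in the cDNA fragmented pair, 4 (Ret, Uchl1, Chat and S100b) were at least 2-fold higher in colon, against 26.1% of all such genes, and 0 were 2-fold higher in small intestine, against 9.68%. Nos1 and Sox10 had fewer reads. In the RNA fragmented pair 5 of 5 genes (Ret, Elavl4, Uchl1, Nos1 and Vip) were at least 2-fold higher in colon, against 27.9%, and 0 in small intestine, against 12.2%. Chat, S100b and Sox10 had fewer than 20 reads. A gene of such low level can reach 20 reads through the tissue in which it is higher, so these counts describe the genes and are not a test.

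A ratio with 1 RPKM added to the denominator, as the study used for its fold filter, passed 3-fold in colon for 0 of the 8 genes in the cDNA fragmented pair, where 3.2% of all genes present did so, and for 2 (Uchl1 and Vip) in the RNA fragmented pair, where the share was 6.59%. A gene below 3 RPKM in colon cannot pass this filter at any ratio, which held for Ret, Elavl4, Chat, Nos1 and Sox10 in the cDNA fragmented pair and for Ret, Chat, Nos1, S100b and Sox10 in the other. With 0.1 RPKM added in place of 1 RPKM the numbers were 1 and 6, with no share of all genes at hand to set beside them. The 6 include Chat and S100b, with 0 small intestine reads and only 8 and 4 colon reads in the RNA fragmented pair. None of the 8 genes passed the filter with 1 RPKM in small intestine (2.73% and 3.71% of all genes). Relative to the median of ratios over all genes, which was 1.32 in the cDNA fragmented and 1.27 in the RNA fragmented pair, the ratio of Vip was 0.989 (0.913 to 1.07) in the former and 5.30 (3.82 to 7.55) in the latter. On the same scale Ret was at 2.24 (1.60 to 3.19) and 1.87 (1.11 to 3.33), Uchl1 at 3.34 (2.36 to 4.85) and 4.80 (1.93 to 15.4), S100b at 1.60 (1.20 to 2.16) in the cDNA fragmented pair and Elavl4 at 1.30 (0.972 to 1.76) and 5.17 (2.09 to 16.5).

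The tissues were also compared over all 4 libraries with limma, with protocol as a term (1 residual degree of freedom). The spread of a gene was there taken from a trend over all genes at its level, since the prior degrees of freedom were infinite, so a disagreement between the protocols in a single gene hardly enters its SE, and a call does not show that both pairs differed alike. Of 14637 genes tested, 731 (4.99%) were called higher in colon and 1000 (6.83%) higher in small intestine at a Benjamini-Hochberg adjusted p of 0.05. Without scaling factors these numbers were 1803 and 847. Of the 8 genes 7 were tested, since Sox10 had too few reads. The fitted log2 difference was higher in colon for all 7, and 0 were called, with 1 gene below an unadjusted p of 0.05. This was Uchl1, with a log2 difference of 1.86 (SE 0.69) and an adjusted p of 0.0595 in limma. Ret had a log2 difference of 1.04 (SE 0.63, adjusted p = 0.347), and Vip one of 0.94 (SE 0.48, adjusted p = 0.231). The adjusted p of the others ranged from 0.372 (Nos1) to 0.544 (S100b). In the fit without scaling factors 2 of the 8 genes were called, Uchl1 and Vip, with adjusted p of 0.0038 and 0.020, and across the alternatives the lowest adjusted p among the genes lay between 0.0038 and 0.0736.

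Levels in the same tissue differed between the libraries of the protocols, with Nos1 and S100b in opposite directions. The small intestine libraries also differed in Xist and Y-linked reads (1751 and 19 against 9 and 360), so there protocol, animal and sex cannot be told apart. No label ties the colon libraries of the protocols to the same animals, so in colon protocol and sample cannot be told apart either. In colon the level of Nos1 was 107 times higher (34.3 to 538) in the RNA fragmented than in the cDNA fragmented library, whereas the median of this ratio over 13946 genes with at least 20 reads was 1.43, and 0.359% of them had a higher one. S100b was 5.58 times higher (2.14 to 20.7) in the cDNA fragmented colon library, and 4.98% of the genes had a lower ratio of RNA to cDNA fragmented level. Ret, Elavl4, Uchl1 and Vip were 3.47, 2.96, 1.95 and 2.17 times higher in the RNA fragmented colon library. In small intestine Vip was 2.37 times higher (1.72 to 3.35) in the cDNA fragmented library, the opposite of colon.

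The exon blocks of Nos1 differ from those of the other genes. They hold 40.4% of the 10857 exon bases that GENCODE M1 gives for Nos1, and 97.7% of the block bases are coding. The last annotated exon, chr5:118403807-118408849, is 5043 bases long and is represented only by the 14 bases in capitals above, a stretch shorter than the 35 colors of a read. For Elavl4 the blocks hold 83.3% of the annotated exon bases, and for the other 6 genes at least 99.9%. Nos1 reads of the RNA fragmented colon library fell on 17 of the 28 blocks, with 14 reads in the first, and their median position was 34.2% of the way along the block bases. Reads from the untranslated end of Nos1 could not be placed in any library.

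In the cDNA fragmented libraries the last block of Ret and of Uchl1 held more of the reads than its share of the bases. The last block of Ret makes up 50.2% of its bases and held 84.8% (Wilson 95% interval 71.8 to 92.4) and 81.3% (74.3 to 86.8) of the reads in the cDNA fragmented libraries of small intestine and colon, against 66.7% (43.7 to 83.7) and 54.8% (43.4 to 65.7) in the RNA fragmented libraries. The median position of Ret reads along its bases differed less. It was 58.9% in small intestine and 59.1% in colon in the cDNA fragmented libraries, and 58.1% and 52.7% in the RNA fragmented libraries. The last block of Uchl1, 34.3% of its bases, held 71.1% (64.2 to 77.0) of the reads of the cDNA fragmented colon library and 32.7% (21.5 to 46.2) of those of the RNA fragmented one. The last block of Elavl4, 66.1% of its bases, went the other way in colon, with 43.7% (35.6 to 52.1) of the cDNA fragmented and 82.1% (70.2 to 90.0) of the RNA fragmented reads. Vip showed no such shift in colon, with 51.9% (49.4 to 54.5) and 54.9% (50.3 to 59.5) of reads in its last block. The part of the read position in the level of Nos1 was not tested.

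**Figure D3:**
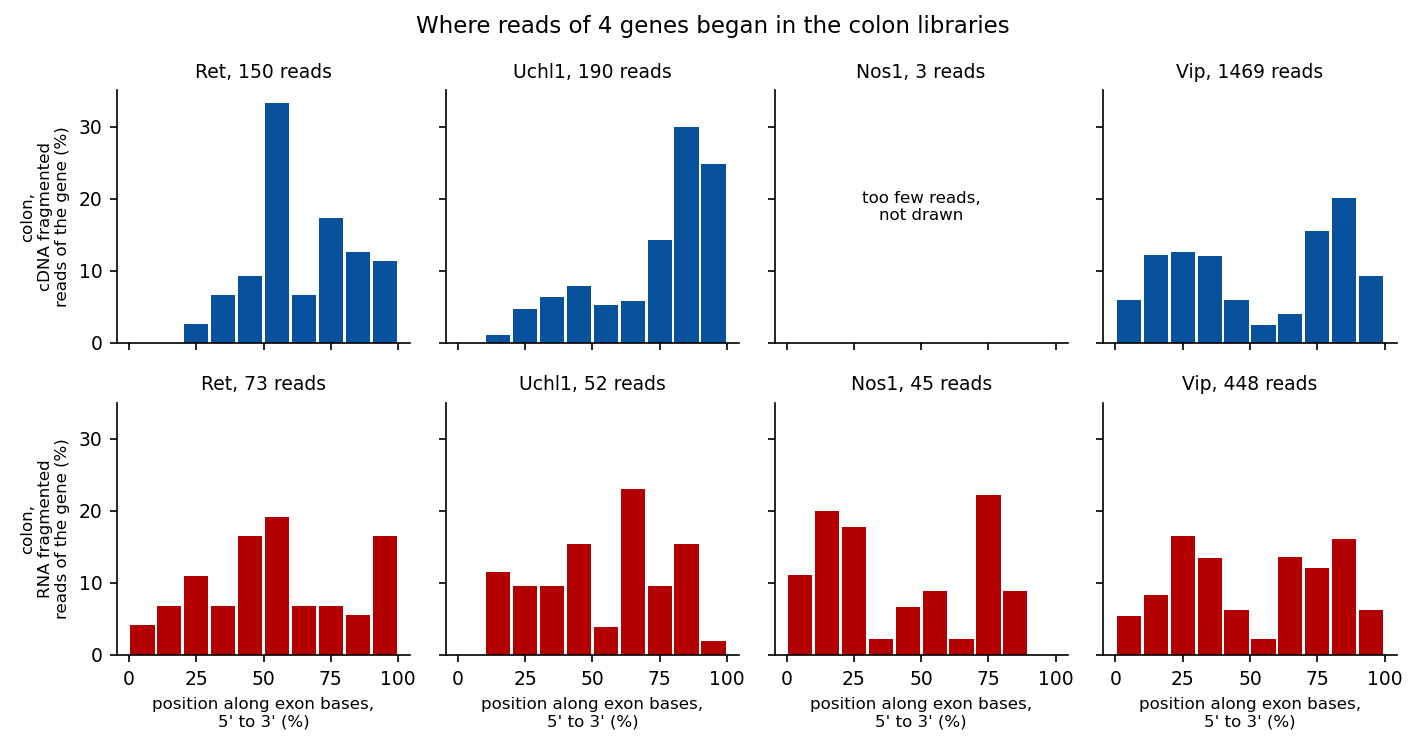
Position at which reads began along the exon bases of Ret, Uchl1, Nos1 and Vip, from 5′ to 3′ in bins of 10% each, as a percentage of the reads of the gene in the colon libraries of each protocol. Reads of Uchl1 rise towards the 3′ end in the cDNA fragmented library (71.1% in the last block), reads of Nos1 spread over 17 blocks in the RNA fragmented library, and the 3 Nos1 reads of the cDNA fragmented library were not drawn.

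Other genes of enteric neurons with at least 20 reads were mostly higher in colon as well. Of 20 pan-neuronal genes other than the 8, 17 had at least 20 reads in the cDNA fragmented pair and 14 of these were at least 2-fold higher in colon and 0 in small intestine (median log2 ratio 1.62). In the RNA fragmented pair it was 10 and 0 of 12 (median 1.86). Over all genes with at least 20 reads, 26.1% were 2-fold higher in colon and 9.68% in small intestine in the former pair, and 27.9% and 12.2% in the latter. A listed gene can also reach 20 reads through the tissue in which it is higher, as Vat1l did with 5 and 81 RNA fragmented reads. The counts of this list and of those below therefore describe the genes and are not a test. Stmn2, a microtubule regulator of neurons with the highest level of the list in the cDNA fragmented colon library, had 4.86 RPKM in small intestine and 15.1 RPKM in colon, and 3.10 and 14.9 RPKM in the RNA fragmented pair. Stmn3 was 4.17-fold (2.69 to 6.71) and 3.90-fold (1.92 to 8.94) higher in colon. Vat1l was the only one of 19 tested genes called by limma, with a log2 difference of 2.11 (SE 0.75, adjusted p = 0.0441). Gap43, a protein of growing axons, was 4.08-fold higher (2.65 to 6.50) in the cDNA fragmented pair, while 2 and 3 reads gave a ratio of 0.878 (0.101 to 10.5) in the other.

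Genes of enteric nervous system formation, the partners of Ret and Sox10, were counted in the same way. Of 13 with at least 20 reads, 5 were at least 2-fold higher in colon and 2 in small intestine in the cDNA fragmented pair, and 6 and 2 in the RNA fragmented pair, beside shares over all genes of 26.1% and 9.68%, and of 27.9% and 12.2%. Their median log2 ratios were 0.56 and 0.39, beside 0.37 and 0.40 over all genes. Limma called 2 of 13 tested, both higher in small intestine, namely the transcription factor Tbx3 (log2 difference -3.37, SE 0.51, adjusted p = 1.41e-09) and Edn3 (-2.02, SE 0.52, adjusted p = 0.00182), the ligand of the endothelin receptor of neural crest cells. Hand2, a transcription factor of enteric neurons, was 8.16-fold (2.51 to 42.0) and 4.80-fold (1.90 to 15.6) higher in colon, with 3 and 27 reads and with 5 and 41 reads. Hoxb5 was 5.13-fold higher (3.36 to 8.11) in the cDNA fragmented pair and 1.32-fold (0.645 to 2.85) in the other. Ece1, the endothelin-converting enzyme and the most abundant of the list in the cDNA fragmented pair, had ratios of 2.02 (1.89 to 2.15) and 1.04 (0.880 to 1.23).

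Transmitter enzymes and peptides other than Chat, Nos1 and Vip were at least 2-fold higher in colon for 10 of 16 genes with at least 20 reads in the cDNA fragmented pair, where 3 were 2-fold higher in small intestine, and for 8 of 9 in the RNA fragmented pair, where 0 were. Of all genes 26.1% and 27.9% were 2-fold higher in colon in these pairs, and 9.68% and 12.2% in small intestine. The vesicular acetylcholine transporter Slc18a3 could not be matched by symbol, so 20 of the 21 listed genes were measured. Penk, the precursor of enkephalins, rose in colon with a log2 difference of 3.07 (SE 0.75, limma adjusted p = 0.000704), from 0.98 to 7.34 RPKM and from 0.70 to 23.4 RPKM. Grp, the gastrin-releasing peptide, also rose (log2 difference 4.18, SE 1.07, adjusted p = 0.00151). Npy fell in colon (log2 difference -3.06, SE 0.89, adjusted p = 0.00757), with 101 and 18 reads and with 2 and 0 reads. Gal and Nmu were 4.03-fold (3.62 to 4.51) and 7.51-fold (3.42 to 19.5) higher in colon in the cDNA fragmented pair, and their ratios in the RNA fragmented pair, from 7 and 12 reads each, had an interval of 0.364 to 3.01.

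Receptors and effectors of vasoactive intestinal peptide, nitric oxide and acetylcholine were at least 2-fold higher in colon for 5 of 10 genes with at least 20 reads in the cDNA fragmented pair, and 0 were at least 2-fold higher in small intestine (median log2 ratio 0.75). These counts were 9 and 1 of 10 in the RNA fragmented pair (median 2.20), against 27.9% and 12.2% of all genes, and 26.1% and 9.68% in the cDNA fragmented pair. Vipr2 was the only one of 11 called by limma, with a log2 difference of 2.73 (SE 0.71, adjusted p = 0.0018) and ratios of 8.06 (5.36 to 12.6) and 10.8 (4.82 to 30.1). Vipr1, the other receptor of the peptide, had 18.7 and 20.2 RPKM in the cDNA fragmented pair, and 47.0 RPKM in small intestine and 16.5 RPKM in colon in the RNA fragmented pair. The muscarinic receptor Chrm1 and the nicotinic subunit Chrnb4 had ratios of 3.53 (2.43 to 5.24) and 3.88 (2.97 to 5.11) in the former and 5.31 (2.99 to 10.3) and 5.52 (2.53 to 14.3) in the latter.

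Of the glial genes other than S100b and Sox10, 5 of 12 with at least 20 reads were at least 2-fold higher in colon in the cDNA fragmented pair and 6 of 9 in the RNA fragmented pair, and 0 in small intestine in either. The shares of all genes at least 2-fold higher in colon were 26.1% and 27.9%, and 9.68% and 12.2% were at least 2-fold higher in small intestine. The median log2 ratios of the glial genes were 0.66 and 1.31, and those of all genes 0.37 and 0.40. Gfap, the intermediate filament of glia, had 3 and 40 reads and 1 and 13 reads, with ratios of 12.1 (3.85 to 61.1) and 7.61 (1.14 to 323). Mal was the only one of 13 called by limma (log2 difference 6.14, SE 0.65, adjusted p = 6.6e-19). Its product is a membrane protein of myelin that is also found in epithelia, and its level in colon was 78.4 RPKM in the cDNA fragmented and 44.9 RPKM in the RNA fragmented library. The glial transcription factor Sox2 had 0 and 2 reads and 0 and 0 reads. Art3 had ratios of 2.33 (2.02 to 2.69) and 1.46 (0.239 to 15.4). Erbb3, which epithelium also expresses, was the most abundant of the list in the RNA fragmented libraries, and its ratio of colon to small intestine was 1.09 (1.02 to 1.17) and 0.989 (0.909 to 1.08).

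**Figure D4:**
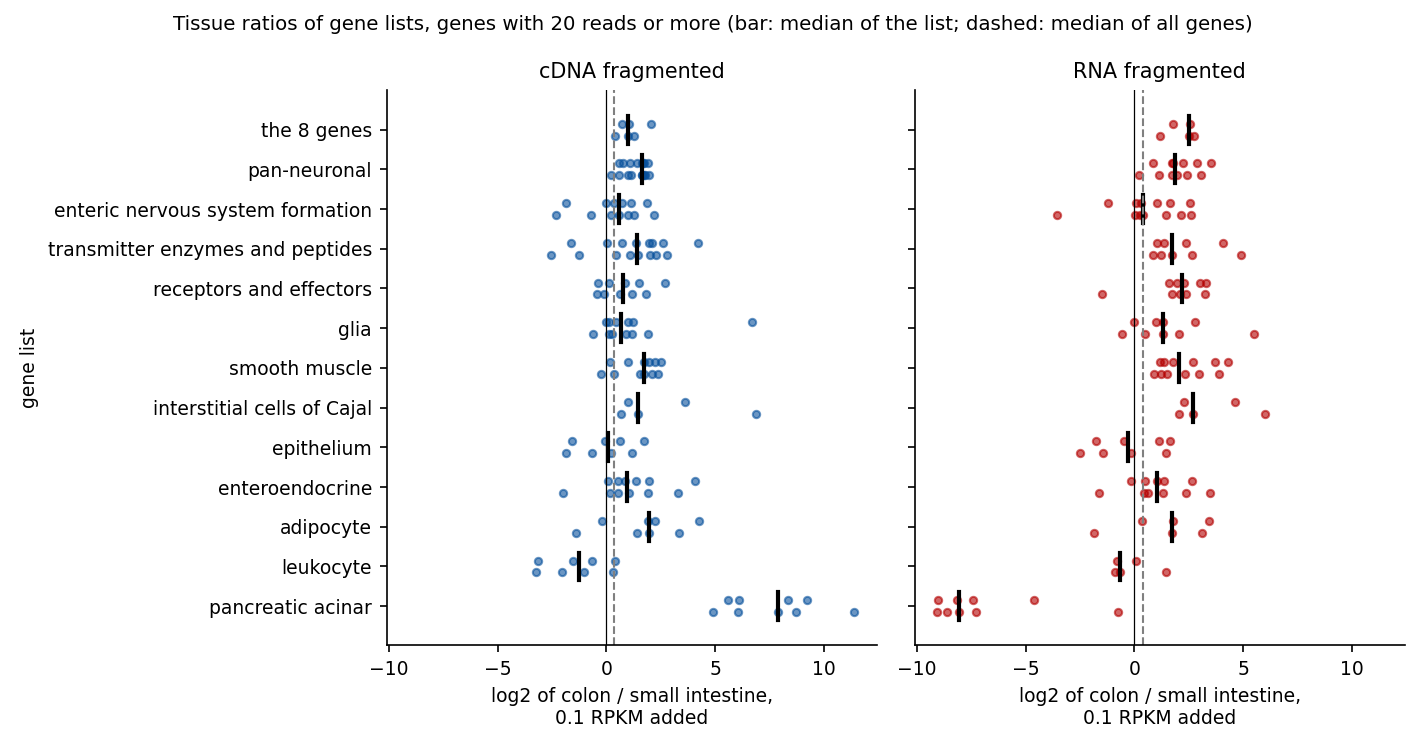
Log2 ratio of colon to small intestine, with 0.1 RPKM added, for the genes of each list with at least 20 reads in the pair (points), with the median of each list as a bar and the median of all genes as a dashed line. Pan-neuronal genes (medians 1.62 and 1.86) and smooth muscle genes (1.74 and 2.04) lie to the right of the dashed line in both protocols, whereas pancreatic acinar genes lie at 7.88 in the cDNA fragmented and at -8.08 in the RNA fragmented pair.

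Markers of smooth muscle and of interstitial cells of Cajal, 2 other cell types of the gut wall, were mostly higher in colon too. In whole tissue, a larger share of neurons and glia and more RNA per neuron or glial cell cannot be told apart. Of 12 smooth muscle genes, 9 were at least 2-fold higher in colon in the cDNA fragmented and 11 in the RNA fragmented pair, and limma called 8 higher in colon and 0 in small intestine. Over all genes 26.1% and 27.9% were 2-fold higher in colon, and limma called 4.99% higher in colon and 6.83% in small intestine. Cnn1 and Tagln, proteins of the contractile apparatus, were 4.77-fold (4.41 to 5.16) and 5.18-fold (4.84 to 5.53) higher in the former pair and 20.1-fold (15.8 to 25.9) and 13.0-fold (9.89 to 17.3) higher in the latter. Smtn, an actin-binding protein of smooth muscle, was 6.03-fold (4.80 to 7.66) and 2.63-fold (1.99 to 3.51) higher in colon. Mylk, the myosin light chain kinase, had ratios of 0.850 (0.826 to 0.875) and 1.85. The summed level of the 12 smooth muscle genes was 488 and 1738 RPKM in the cDNA fragmented libraries of small intestine and colon, and 365 and 2834 RPKM in the RNA fragmented libraries, and none of them was at 0. Genes of the interstitial cells of Cajal, the pacemaker cells next to the plexus, were at least 2-fold higher in colon for 4 of 5 and 5 of 5 genes, with summed levels of 11.8 and 54.5 RPKM, and of 15.2 and 236 RPKM. Kit, their receptor tyrosine kinase, Ano1, their chloride channel, and Thbs4 were called higher in colon. The part of the share of muscle and plexus in the tissue samples was not tested.

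The adipocyte list had summed levels of 114 and 456 RPKM, and of 68.4 and 249 RPKM, and limma called 4 of 8 genes higher in colon and 1 in small intestine, against 4.99% and 6.83% of all genes. Its calls higher in colon were Adipoq, Fabp4, Cfd and Pparg, with ratios between 3.75 and 19.7 in the cDNA fragmented and between 3.34 and 10.9 in the RNA fragmented pair. The call higher in small intestine was Lipe, with ratios of colon to small intestine of 0.370 and 0.272, and Cidec had ratios of 0.860 and 1.26. The part of adipocytes in the reads of S100b was not tested. Of 12 enteroendocrine genes, which share peptides and secretory proteins with neurons, limma called 3 higher in colon and 1 in small intestine, with Pyy at 17.8 and 176 RPKM in the cDNA fragmented pair. Insm1, a transcription factor of endocrine cells, had ratios of 20.7 (14.2 to 31.4) and 1.59 (0.639 to 4.47). The peptide precursors Cck and Sct had ratios of 0.247 and 0.315, and of 2.09 and 1.40. The 8 epithelial genes had median log2 ratios of 0.07 and -0.31. Their summed levels were 9922 and 5268 RPKM, of which Krt20 alone gave 7525 and 2503 RPKM, and 4629 and 6317 RPKM in the RNA fragmented libraries. Krt19 was 3.30-fold and 3.07-fold higher in colon, whereas Vil1 had ratios of 0.273 and 0.298. The leukocyte list had 0 genes called higher in colon and 4 of 8 in small intestine. Ptprc, Cd3e and Cd3g were among these calls, and the most abundant gene, Lyz2, had ratios of 1.22 and 2.76. Pancreatic acinar genes separated the libraries in opposite directions, with summed levels of 19.3 and 1095 RPKM in the cDNA fragmented libraries of small intestine and colon, and of 3440 and 301 RPKM in the RNA fragmented libraries. Cela2a, Pnlip and Prss2 had 0 reads in small intestine and 867 to 5503 in colon in the former, against 217 to 1312 and 1 to 8 in the latter, and Cela1 had ratios of 29.8 and 0.587. Limma called Cela1 higher in colon (log2 difference 1.73, SE 0.44, adjusted p = 0.00147), although its ratios went opposite ways in the pairs. Per uniquely placed read, Ret, Elavl4, Uchl1 and Vip were higher in colon in both pairs. By the same measure 66.3% of all genes were higher in colon in the cDNA fragmented pair and 64.8% in the RNA fragmented pair. The acinar transcripts changed sides, and their part in the ratios was not tested.

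The genes with at least 100 reads in every library whose profile over the 4 libraries came nearest to the median profile of the 8 genes were Cd24a, Suclg2, Acly, Pdxdc1 and Galnt7, with Euclidean distances of 0.202 to 0.462 on the log2 scale among 3226 genes. Of the 8 genes themselves Elavl4 was nearest to this profile at 0.351, and S100b was farthest at 4.01, followed by Nos1 at 3.25. Cd24a had 104 and 208 RPKM in the cDNA fragmented libraries and 96.9 and 504 RPKM in the RNA fragmented libraries. With 4 libraries the likeness is a description of these libraries.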

How the data were processed

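The authors' deposited match files hold the reference position, strand and mismatches of each uniquely placed read. The authors had matched 35 colors per read, with up to 3 mismatches, to RefSeq exons and exon junctions of mm9, and had removed reads with several placements.

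Each exon block was given to the GENCODE M1 gene (NCBIM37, the same build) with most shared exon bases, coding genes first. Reads starting within a block, or up to 3 bases beyond it, were counted per gene and given as RPKM. Nearly all placements on junctions carried mismatches (86.1% to 90.2% had 3), so junction reads were left out. Totals equalled those of the authors' reports. Ratios have exact conditional binomial (Clopper-Pearson) 95% intervals, levels have exact Poisson intervals and shares have Wilson intervals; 0 reads were read as a floor of 3. Ratios of ratios have normal intervals on the log scale.

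The deposited files hold read positions, and counts per gene were made from them here. In place of the count model planned for the comparison over 4 libraries, these counts were compared with limma 3.58.1 (voom, R 4.3.3) with scaling factors from trimmed means of log ratios, on genes with at least 20 reads in all and with Benjamini-Hochberg adjustment over all genes tested. Its p-values rest on a spread pooled over all genes from libraries of different protocols, with infinite prior degrees of freedom. The fit was tested on simulated data. The genes and lists were chosen with earlier results of these data known. Named were all 8 genes and, per list, up to 3 genes with the largest absolute log2 ratio in the cDNA fragmented pair (0.1 RPKM added, at least 20 reads), the most abundant gene and a sole call. Edn3, Npy, Sox2, Erbb3, Mylk, Lipe and Cidec fell outside this rule and were chosen after their values were seen.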

Additional observations from a re-analysis of the deposited data

How the results depend on the processing

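Ratios were recomputed for the 6 genes per pair with reads in small intestine (not Nos1 and Sox10 in the cDNA fragmented, nor Chat and S100b in the RNA fragmented pair), with median-of-ratios scaling, at most 1 mismatch, start points in place of reads, blocks of a single gene, junction reads added, reads of the strand of the gene (RNA fragmented pair) and, chosen after seeing the data, library sizes without Lars2. In the cDNA fragmented pair 35 of 36 ratios stayed above 1 and 34 stayed within the interval of the ratio first given. The exceptions were Vip with median-of-ratios scaling, which turned to 0.989, and Vip by start points at 1.15. In the RNA fragmented pair 42 of 42 stayed above 1 and 41 within the interval, Vip by start points (4.36) being the exception. Several settings could hardly change a ratio, so these counts are not independent checks. Only Uchl1 had blocks shared with another gene, and few junction reads were placed on the genes. In the RNA fragmented pair all reads of the recomputed genes lay on the strand of the gene. Leaving out Lars2 rescaled every gene alike. Sox10 in that pair, with 1 and 4 reads, had an interval as wide as 0.232 to 115. Of all genes, 66.3% were higher in colon per uniquely placed read in the cDNA fragmented pair and 64.8% in the RNA fragmented pair. The number of genes at least 2-fold higher in colon was 3 to 5 in the cDNA fragmented and 4 to 5 in the RNA fragmented pair. The number past 3-fold with 1 RPKM added to the denominator was 0 in the cDNA fragmented pair, 1 by start points and 1 with 0.1 RPKM added, and in the RNA fragmented pair 2 and, with 0.1 RPKM added, 6. Shares of all genes are at hand only for the setting first given, so these changes in number cannot be set against all genes. The median log2 ratio fell from 1.01 to 0.38 and from 2.53 to 1.005 with 1 RPKM in place of 0.1 RPKM added. Limma called 0 of the 8 genes with median-of-ratios scaling, with no filter beyond 1 read and with at most 1 mismatch, 1 by start points, 1 with limma's trend method and 2 without scaling factors, the last 2 settings being chosen after seeing the data. Over all genes 1027 were called higher in colon and 1211 in small intestine of 14497 by start points. These numbers were 747 and 895 of 14637 with the trend method, and 1803 and 847 of 14637 without scaling factors. The fit without scaling factors has a median log2 difference of 0.39 over all genes.

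With 1 library per tissue and protocol, leaving a library out gave a fit with no residual degrees of freedom. A planned fit by DESeq2 was not run. The labels carry no replicate numbers, so the only block was the protocol, which is a term of the limma fit. Low read numbers limit Chat, Nos1, S100b and Sox10 most, each with fewer than 10 reads in at least 2 libraries. For Nos1 the fewest reads, 0 in small intestine and 3 in colon, were in the deeper, cDNA fragmented libraries.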
